A study of Mus musculus with 12 samples.

Results

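The 7 genes described here encode the enzymes that write DNA methylation, with the protein that guides the maintenance enzyme, and the enzymes that oxidise it: Dnmt1, Dnmt3a, Dnmt3b, Uhrf1, Tet1, Tet2 and Tet3. They were taken by gene name from a one-colour Agilent mouse array, on which they have 16 of 39429 probes and make up 7 of 31541 gene names. All 16 probes were well above background on all 12 arrays, so each of the 7 genes was tested. The arrays measured RNA of sorted bone marrow cells of female C57BL/6 mice aged 16 weeks that carry Cebpa-Enh/prom-hCD4, a transgene in which the enhancer and promoter of Cebpa, the gene of a myeloid transcription factor, drive human CD4 (hCD4) as a surface marker. There were 6 groups of 2 arrays: hCD4+ granulocyte-monocyte progenitors (GMP), hCD4- and hCD4+ pre-pro-B cells, hCD4- and hCD4+ pro-B cells, and pre-B cells, for which the labels state no hCD4 gate. Every group carried the transgene, so hCD4+ and hCD4- name a sorting gate and not a genotype. The labels do not tie the replicate numbers to animals, while the series title speaks of 2 mice, and p-values below therefore cover only how far these samples spread, which may be technical.

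DNA methylation is copied at each cell division by Dnmt1, which Uhrf1 brings to CpG sites that replication has left methylated on 1 strand. Dnmt3a and Dnmt3b place methyl groups on sites that had none, and Tet1, Tet2 and Tet3 oxidise the methyl group, which opens the way to its loss. In blood formation Dnmt3a and Tet2 are known as genes whose loss lets stem cell clones expand, and Tet2 and Tet3 are known to act together as pro-B cells become pre-B cells.

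Probes of these genes are 60 bases long, and their positions are given here as the array design lists them on build mm9. Sequences follow for the probes on which the results turn: the single Dnmt1 probe, the Uhrf1 probe that crosses an exon junction, the Tet1 probe that lies far upstream, and all 3 Tet3 probes, which differ in their pattern. The Dnmt1 probe covers parts of chr9:20711973-20712341 on the minus strand and joins exons.
Dnmt1 A_51_P195573: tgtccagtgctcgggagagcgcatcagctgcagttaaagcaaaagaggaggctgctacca
Uhrf1 A_66_P120074: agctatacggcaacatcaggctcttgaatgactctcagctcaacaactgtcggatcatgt
Tet1 A_55_P2123002: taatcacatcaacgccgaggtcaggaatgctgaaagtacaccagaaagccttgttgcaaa
Tet3 A_55_P2175260: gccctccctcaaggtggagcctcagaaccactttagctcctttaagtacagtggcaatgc
Tet3 A_51_P199339: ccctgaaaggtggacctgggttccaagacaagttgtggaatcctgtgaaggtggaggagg
Tet3 A_52_P491273: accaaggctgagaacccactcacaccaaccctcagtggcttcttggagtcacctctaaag
This Uhrf1 probe joins exons across chr17:56451668-56452321 on the plus strand. The Tet1 probe lies at chr10:62301856-62301915 on the minus strand, 27408 bases upstream of that gene's 3′-most probe. The Tet3 probes lie on the minus strand at chr6:83319720-83319779, chr6:83318731-83318790 and chr6:83352743-83352802, in the order printed, and the last of them is 34012 bases upstream of the 3′-most. Of the 16 probes, 12 carried an accession found in the RefSeq gene table (assembly GRCm38.p6), and all 12 matched the same gene symbol. A gene is represented below by its brightest probe, and its other probes are given where they differ.

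Levels are log2 signal relative to the 75th percentile of the array, so that 0 is that percentile, and they are compared between groups and not between genes. That percentile ran from 246 to 946 signal units, and 51.0 to 57.2% of spots were well above background. The dimmest arrays were those of hCD4- pre-pro-B cells, at 246 and 358 units, whose replicates differed most (median SD 0.221, against 0.0977 to 0.152 in the other groups). On those 2 arrays the spiked-in control RNA also lay highest above the 75th percentile, by 7.85 and 7.93 on the log2 scale, against 4.87 to 7.38 on the others. Each of 3 slides held 2 groups: GMP with hCD4- pre-pro-B, hCD4+ pre-pro-B with hCD4- pro-B, and hCD4+ pro-B with pre-B. Across slides, an effect of the slide and one of the group cannot be told apart. The sorted populations matched their labels in part. GMP markers such as Mpo and Elane summed to a log2 level of 9.94 to 10.22 in GMP, 7.06 to 7.21 in hCD4+ pro-B, 4.20 to 5.42 in hCD4+ pre-pro-B and 1.32 to 2.19 in the other 3 groups. Ebf1 and Pax5, transcription factors that define committed B cells, were not well above background on any pre-pro-B array. Of the 10 pro-B markers, these among them, 5 and 6 were not well above background on the hCD4- pre-pro-B arrays. On the hCD4+ pre-pro-B arrays 5 and 3 were not, and the rest of the list was well above background in both groups. All 10 were well above background on every pro-B and pre-B array. Dendritic cell markers, among them Siglech and Bst2, summed to 8.42 to 8.94 on the 4 pre-pro-B arrays and to 6.42 to 7.12 elsewhere, and all 7 that could be tested were above background in the pre-pro-B groups. Mature neutrophil and erythroid markers were each higher in hCD4- pro-B than in hCD4- pre-pro-B cells in 6 of 7 tested genes, of which 3 or 4 neutrophil and 4 or 5 erythroid markers were not well above background on the hCD4- pre-pro-B arrays. Of 6 T cell and 5 plasma cell markers, 3 and 1 were higher there and 2 and 2 lower. In that comparison 32.7% of all genes were called higher and 26.9% lower. The part of these other cell types in the results below was not tested. In sorted bulk samples, fewer cells of a type and less RNA per cell cannot be told apart.

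Levels of 6 of the 7 genes differed over the 6 groups in limma's F test (adjusted p 1.70e-07 for Uhrf1 to 7.93e-05 for Tet1), and Tet3 did not pass (adjusted p = 0.105). Most genes on the array passed this test, 82.8% of the 18543 tested. In the pairs of groups used below only to order the levels, 45.2% of all genes were called between GMP and hCD4- pro-B, 45% between GMP and hCD4+ pro-B, 65% between GMP and pre-B, 60% between hCD4+ pro-B and hCD4- pre-pro-B, and 53.5% and 52% between pre-B and hCD4- and hCD4+ pre-pro-B cells. The genes fell into different orders. Uhrf1 and Dnmt1 were lowest in hCD4- pre-pro-B cells and high in pro-B and pre-B cells, Dnmt3b was highest in GMP, Dnmt3a and Tet1 were higher in pre-pro-B than in pre-B cells, and Tet2 was lowest in the pro-B groups.

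**Figure D1:**
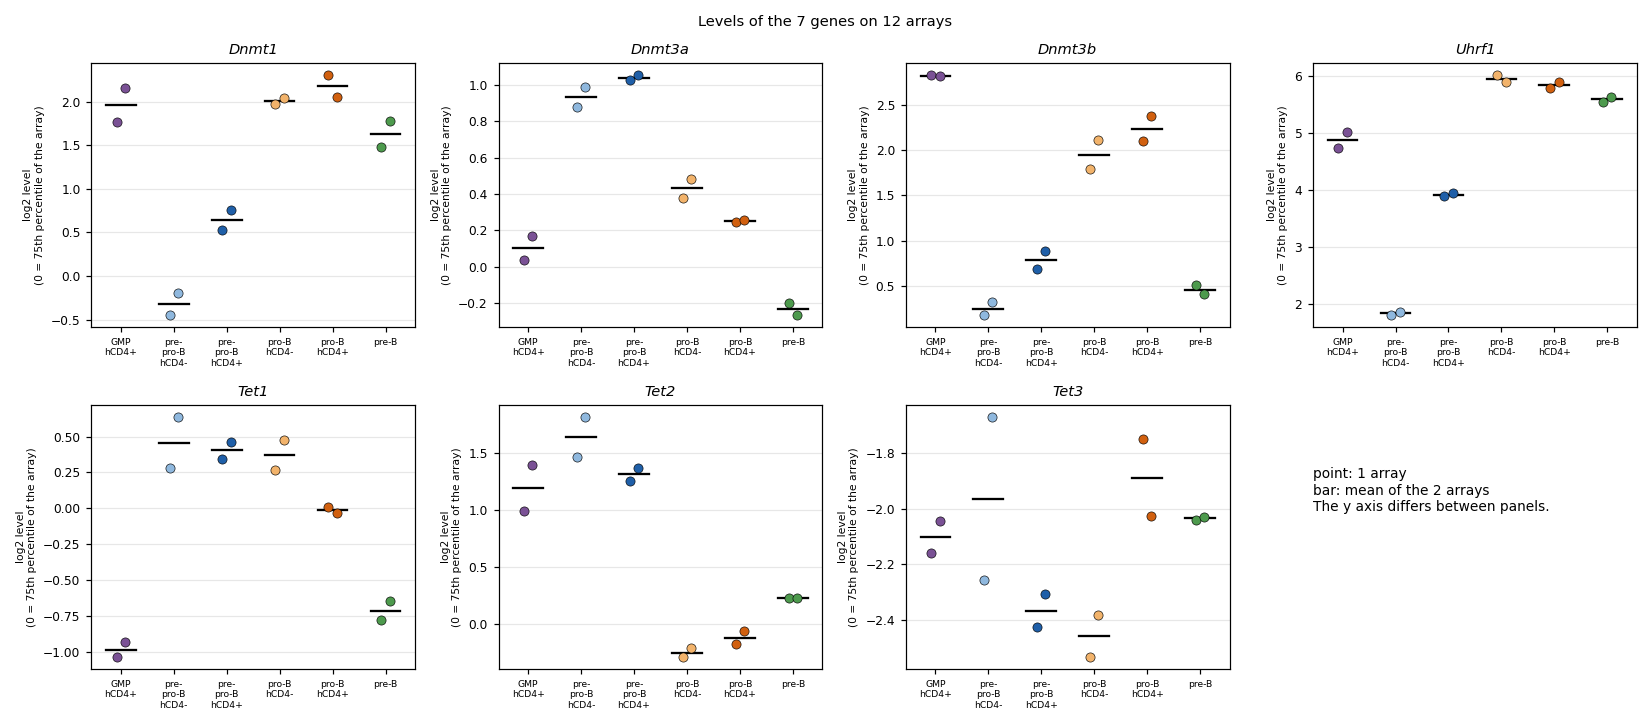
Log2 levels of the 7 genes on each of the 12 arrays by sorted group (x axis), with 0 at the 75th percentile of the array, points for arrays and bars for the mean of 2 arrays; the y axis differs between panels. Uhrf1 sits at 1.80 and 1.86 in hCD4- pre-pro-B cells and between 5.54 and 6.01 in pro-B and pre-B cells, while Tet2 sits between -0.30 and -0.07 in pro-B cells and between 1.25 and 1.81 in both pre-pro-B groups.

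Uhrf1, which brings Dnmt1 to newly copied DNA, had the widest range of the 7 genes. Its level was 1.80 and 1.86 on the hCD4- pre-pro-B arrays, 3.88 and 3.94 on the hCD4+ pre-pro-B arrays, 4.74 and 5.0 in GMP, 5.54 and 5.62 in pre-B, 5.79 and 5.88 in hCD4+ pro-B and 5.89 and 6.01 in hCD4- pro-B cells. The pre-pro-B groups lay below every other array, and the hCD4- one below the hCD4+ one, with no overlap. In hCD4+ against hCD4- pre-pro-B cells Uhrf1 rose by 2.08 on the log2 scale (SE 0.121, 4.23-fold, adjusted p 3.10e-05). From pre-pro-B to pro-B it rose by 4.12 among hCD4- cells (SE 0.121, 17.4-fold, adjusted p 1.12e-07) and by 1.93 among hCD4+ cells (SE 0.121, 3.80-fold, adjusted p 7.86e-06). Within a slide, GMP exceeded hCD4- pre-pro-B cells by 3.04 (adjusted p 2.63e-07) and hCD4- pro-B cells exceeded hCD4+ pre-pro-B cells by 2.04 (adjusted p 3.79e-06). In order of level, neighbouring groups differed at each step from pre-B down to GMP (0.71), GMP down to hCD4+ pre-pro-B (0.96) and so to hCD4- pre-pro-B (2.08), while the steps among hCD4- pro-B, hCD4+ pro-B and pre-B did not pass the test. The probe across the exon junction gave like values: 1.92 (SE 0.380, adjusted p 0.0127) for hCD4+ against hCD4- pre-pro-B, 3.81 (SE 0.380, adjusted p 4.93e-05) and 2.08 (SE 0.380, adjusted p 0.00214) for the 2 steps to pro-B. With cyclic loess the excess of GMP over hCD4+ pre-pro-B cells at the brightest probe was 0.54. The junction probe's own excess of GMP over hCD4+ pre-pro-B cells, 0.69, did not pass (adjusted p = 0.163).

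Dnmt1, the maintenance methyltransferase itself, followed Uhrf1 over a smaller range. Its level was -0.45 and -0.19 in hCD4- pre-pro-B, 0.52 and 0.76 in hCD4+ pre-pro-B, 1.48 and 1.78 in pre-B, 1.77 and 2.16 in GMP, 1.98 and 2.04 in hCD4- pro-B and 2.06 and 2.31 in hCD4+ pro-B cells. The 4 pre-pro-B arrays lay below the other 8. It rose in hCD4+ against hCD4- pre-pro-B cells by 0.97 (SE 0.185, 1.95-fold, adjusted p 0.0115), a call that ended without the replicate 2 array of hCD4+ pre-pro-B (adjusted p 0.0825) and with only the arrays compared (adjusted p 0.0932). Its rise from pre-pro-B to pro-B was 2.33 among hCD4- cells (SE 0.185, 5.03-fold, adjusted p 1.31e-05) and 1.54 among hCD4+ cells (SE 0.185, 2.90-fold, adjusted p 2.28e-04). GMP stood 1.32 above hCD4+ pre-pro-B cells (SE 0.185, adjusted p 4.20e-04). Between hCD4+ pro-B, hCD4- pro-B, GMP and pre-B cells no neighbouring step passed the test, with differences of 0.17, 0.04 and 0.33. Across the 12 arrays Dnmt1 and Uhrf1 had a Pearson r of 0.95 and a Spearman rho of 0.79, as a description of samples that share groups, slides and scaling.

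Genes of DNA replication moved with these levels. Of 23 S phase genes, such as the Mcm helicase subunits, 23 rose and 0 fell in hCD4+ against hCD4- pre-pro-B cells (median 1.84, against -0.06 over all genes, and 15 with only the arrays compared), led by E2f8 (2.69) and Rrm2 (2.59), a subunit of ribonucleotide reductase. Of 20 G2/M genes, which act in mitosis, 19 rose and 0 fell (median 2.41, with Cenpf not well above background on the hCD4- arrays), with Cdk1, the mitotic kinase, at 3.23. The S phase list rose in full in both steps to pro-B, 23 of 23 each (medians 3.09 among hCD4- and 1.40 among hCD4+ cells, against 0.02 and 0.25 over all genes), and 23 of 23 were higher in GMP than in hCD4+ pre-pro-B cells (median 1.14), while of the G2/M list 2 were higher and 2 lower there (median 0.03). The G2/M count became 1 higher and 6 lower with quantile normalization, and 1 and 7 with normexp and quantile normalization, cyclic loess or the authors' deposited table. In the step to pro-B 19 G2/M genes rose among hCD4- cells (median 3.38) and 15 among hCD4+ cells (median 0.88), a count of 7 in the latter with arrays scaled to their median. Of all genes, 8.78% were called higher in hCD4+ against hCD4- pre-pro-B cells. In the hCD4- and hCD4+ steps to pro-B 32.7% and 33.1% were, and in GMP against hCD4+ pre-pro-B cells 31.3%. In pre-B against hCD4- pro-B cells 12 of 23 S phase genes fell and none rose (median -0.44), where 21.4% of all genes were called lower. That count was 6 with no filter or quantile normalization and 5 or 6 without any 1 of the 4 arrays compared. The gene whose level over the 12 arrays was most like Dnmt1 among 12226 compared was Mcm7, a helicase subunit (Pearson r 0.994), followed by Slc43a3, Ppil1 and Pom121. For Uhrf1 the nearest were Brip1, a DNA helicase, Rttn, Tubb2c and Donson (r 0.992 to 0.993). The part of the share of dividing cells in the Uhrf1 and Dnmt1 levels was not tested.

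**Figure D2:**
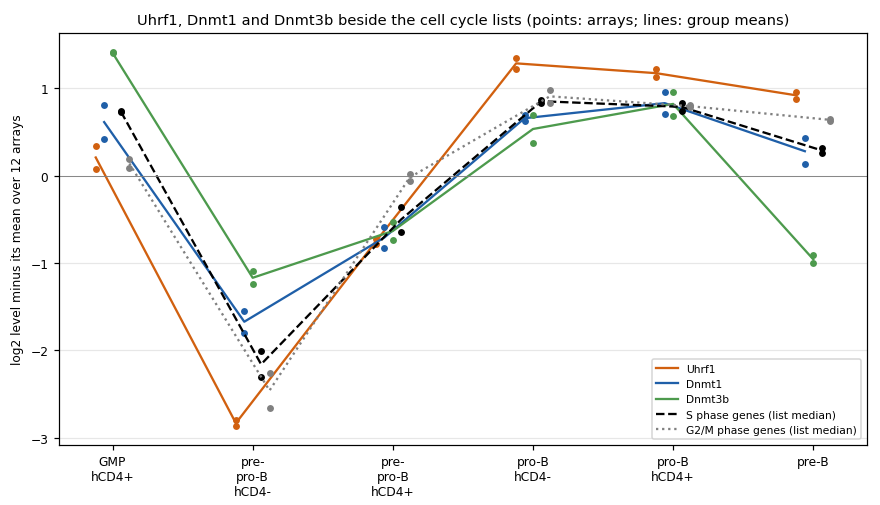
Log2 level minus its own mean over 12 arrays (y axis) for Uhrf1, Dnmt1 and Dnmt3b and for the medians of the S phase and G2/M lists, by sorted group (x axis), with points for arrays and lines for group means. All of them are low in hCD4- pre-pro-B cells and higher in pro-B cells, and in pre-B cells Dnmt3b alone among the 5 returns to below its mean.

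RefSeq promoter windows, from 250 bases before to 50 after a start site on build GRCm38.p6, were available for all 7 genes, 12 windows in all. Since the replication genes moved with Dnmt1 and Uhrf1, the windows were searched on both strands for the E2F words TTTCCCGC, TTTCGCGC, TTTGCCGC and TTTGGCGC. Both genes hold such a word, in 2 of the 12 windows, and the windows of the other 5 hold none, while 2.265% of all 32851 windows do. Each listed word contains a CpG, and these 2 windows hold 33 CpG sites each, against a median of 7 over all windows. The share among windows as rich in CpG was not tested. The 30 bases around each match follow, 5′ to 3′ on the gene's strand, with the word in capitals.
Dnmt1: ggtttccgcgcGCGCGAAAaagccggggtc
Dnmt1: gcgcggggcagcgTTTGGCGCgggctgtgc
Uhrf1: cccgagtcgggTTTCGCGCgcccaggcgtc
They stand at chr9:20952824-20952853 and chr9:20952574-20952603, both on the minus strand, and at chr17:56304117-56304146 on the plus strand. The match in the first of them reads as the reverse complement of a listed word. The palindromic consensus of NRF1, a regulator of housekeeping genes, was in 2 of the Dnmt1 windows and in 0.9711% of all windows. A match describes the letters only. Windows of the 7 genes held a median of 26 CpG sites, against 7 over all windows, from 2 in a Dnmt1 window to 57 in that of Tet2.

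Dnmt3b, a de novo methyltransferase, was highest in GMP. Its level there was 2.82 and 2.83, above 2.10 and 2.37 in hCD4+ pro-B, 1.79 and 2.12 in hCD4- pro-B, 0.68 and 0.89 in hCD4+ pre-pro-B, 0.41 and 0.51 in pre-B and 0.18 and 0.32 in hCD4- pre-pro-B cells. The GMP and pro-B arrays were high and the pre-pro-B and pre-B arrays low, with no overlap between these sets. GMP stood above hCD4+ pre-pro-B cells by 2.04 (SE 0.154, 4.11-fold, adjusted p 1.26e-05) and hCD4+ pro-B cells by 0.59 (SE 0.154, adjusted p 0.0152). The other probes set GMP less far from hCD4+ pro-B cells. A_55_P1975903 read 0.65 and 0.85 in GMP and 0.64 and 0.78 in hCD4+ pro-B cells, which overlap. A_55_P2008874 read -0.23 and 0.15 against -0.45 and -0.36. From pre-pro-B to pro-B it rose by 1.70 among hCD4- cells (SE 0.154, 3.26-fold, adjusted p 2.78e-05) and by 1.45 among hCD4+ cells (SE 0.154, 2.74-fold, adjusted p 1.14e-04). It then fell in pre-B cells, by 1.49 against hCD4- pro-B (SE 0.154, adjusted p 2.46e-04) and by 1.78 against hCD4+ pro-B (SE 0.154, adjusted p 5.68e-05), the second within a slide. The steps in order among the lowest 3 groups did not pass the test. All 3 Dnmt3b probes passed the test in these 4 comparisons between pre-pro-B, pro-B and pre-B groups and in the same directions. In hCD4+ against hCD4- pre-pro-B cells the brightest probe passed at 0.54 (SE 0.154, adjusted p 0.0483), whereas the others gave 0.22 and -0.28 and did not pass (adjusted p 0.371 and 0.323). That call was also lost without any 1 of 10 of the 12 arrays, the 2 hCD4- pro-B arrays being the exceptions (adjusted p 0.0525 to 0.229), and its value was 0.25 in the authors' deposited table and 0.84 with arrays scaled to their median. Of all genes, those most like Dnmt3b over the arrays were Psmg1, Gpatch4, Eef1d and Nhp2 (r 0.991 to 0.994).

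Dnmt3a, the other de novo enzyme, was highest in the pre-pro-B groups. Its level was 1.03 and 1.05 in hCD4+ pre-pro-B, 0.88 and 0.99 in hCD4- pre-pro-B, 0.38 and 0.48 in hCD4- pro-B, 0.24 and 0.26 in hCD4+ pro-B, 0.04 and 0.17 in GMP and -0.20 and -0.27 in pre-B cells. Each listed group lay below the one before it without overlap, but only the steps from hCD4- pre-pro-B to hCD4- pro-B (0.50, adjusted p 0.00346) and from GMP to pre-B (0.34, adjusted p 0.0208) passed the test. Among hCD4+ cells it fell by 0.79 from pre-pro-B to pro-B (SE 0.105, 1.73-fold, adjusted p 3.88e-04). It fell again in pre-B against hCD4- pro-B cells by 0.66 (SE 0.105, 1.58-fold, adjusted p 0.00181) and was lower in GMP than in hCD4+ pre-pro-B cells, at -0.94 (SE 0.105, adjusted p 1.16e-04). With arrays scaled to their median, the step among hCD4- cells was -0.31 and just missed the threshold (adjusted p 0.0505), as it did with only the arrays compared (adjusted p 0.0551). A single probe carries this gene. Among the genes most like it were Pld2, Tpd52 and Lrrk1 (r 0.978 to 0.987).

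Tet2 fell on the way from pre-pro-B to pro-B and stayed lower in pre-B cells. Its level was 1.47 and 1.81 in hCD4- pre-pro-B, 1.25 and 1.37 in hCD4+ pre-pro-B, 0.99 and 1.39 in GMP, 0.22 and 0.23 in pre-B, -0.18 and -0.07 in hCD4+ pro-B and -0.30 and -0.22 in hCD4- pro-B cells. GMP and the pre-pro-B groups were high and overlapped in part, and every B-committed array lay below them. The fall was 1.90 among hCD4- cells (log2 difference -1.90, SE 0.165, 3.72-fold, adjusted p 2.30e-05) and 1.44 among hCD4+ cells (log2 difference -1.44, SE 0.165, 2.71-fold, adjusted p 1.80e-04). Both other Tet2 probes fell as well, by 1.68 to 1.96 in the 2 steps. Within a slide, hCD4- pro-B cells were lower than hCD4+ pre-pro-B cells at -1.57 (SE 0.165, adjusted p 1.03e-04). In pre-B against hCD4- pro-B cells Tet2 rose by 0.48 (SE 0.165, adjusted p 0.0470), a call lost without any 1 of the 8 arrays of the hCD4+ pre-pro-B, both pro-B and the pre-B groups (adjusted p 0.0642 to 0.170). Of the 3 Tet2 probes 1 passed in that comparison, with rises of the 3 from 0.48 to 0.50. Against hCD4+ pro-B cells the brightest probe rose by 0.35 and did not pass (adjusted p = 0.125). There 2 of the 3 probes passed, with rises of the 3 from 0.35 to 0.83. The genes most like Tet2 were Man2b2, Hyi, Atp6v0a1 and Rgs10 (r 0.974 to 0.983). Dendritic cell markers, summed, were at 8.42 to 8.94 in the pre-pro-B groups, 6.42 to 6.45 in GMP, 6.56 to 7.03 in the pro-B groups and 6.98 to 7.12 in pre-B cells. Their part in the Tet2 levels was not tested.

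Tet1 was lowest in GMP and pre-B cells. Its brightest probe read 0.28 and 0.64 in hCD4- pre-pro-B, 0.34 and 0.46 in hCD4+ pre-pro-B, 0.27 and 0.48 in hCD4- pro-B, -0.03 and 0.01 in hCD4+ pro-B, -0.78 and -0.65 in pre-B and -1.04 and -0.93 in GMP. The first 3 groups overlapped, and pre-B and GMP lay below all others. GMP was lower than hCD4+ pre-pro-B cells at -1.39 (SE 0.145, 2.62-fold, adjusted p 7.94e-05), and pre-B cells were lower than hCD4- pro-B cells at -1.09 (SE 0.145, 2.12-fold, adjusted p 8.56e-04) and than hCD4+ pro-B cells at -0.70 (SE 0.145, adjusted p 0.00525). In the authors' deposited table the differences of GMP from hCD4+ pre-pro-B and of pre-B from hCD4- pro-B cells were -0.90 and -0.65. All 3 probes passed in GMP against either pre-pro-B group. In pre-B against hCD4- pro-B cells only 1 of the 3 passed, with differences from -1.09 to -0.39. Against hCD4+ pro-B cells 1 of the 3 passed as well, with differences from -0.70 to -0.24. The upstream probe printed above differed from the others in hCD4- pre-pro-B cells. It read -0.30 and 0.48 there and between -1.41 and -0.97 in hCD4+ pre-pro-B and both pro-B groups, so that it fell by 1.25 in hCD4+ against hCD4- pre-pro-B cells (log2 difference -1.25, SE 0.285, adjusted p 0.0214) and by 1.46 from hCD4- pre-pro-B to hCD4- pro-B (log2 difference -1.46, SE 0.285, adjusted p 0.00234). The brightest probe gave -0.05 and -0.09 in these comparisons and the remaining one -0.07 and -0.27, none past the threshold. The upstream probe read low on its arrays outside that group, and the arrays of that group were dimmest and furthest apart. The remaining probe read lower still in each group, with group means from -3.08 to -1.78. The part of array brightness in the upstream probe's difference was not tested. Rab35, Thy1, Pcbp4 and Itgb4 were most like Tet1 (r 0.964 to 0.979).

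Tet3 was the member with the least agreement between probes. Its brightest probe ranged from -2.54 to -1.67 over the 12 arrays, and no step between neighbouring groups in order passed the test. The other 2 probes were highest in hCD4- pre-pro-B cells: A_51_P199339 read -2.77 and -2.45 there and -4.04 to -3.22 on all other arrays, and A_52_P491273 read -1.56 and -0.78 there and -3.40 to -1.82 elsewhere. From hCD4- pre-pro-B to hCD4- pro-B these 2 fell by 1.37 (log2 difference -1.37, SE 0.171, adjusted p 1.87e-04) and by 1.69 (log2 difference -1.69, SE 0.311, adjusted p 0.00175), and the brightest probe gave -0.50 (SE 0.193, adjusted p = 0.0538). They were also lower in GMP than in hCD4- pre-pro-B cells, at -1.31 and -1.83 (adjusted p 1.97e-04 and 9.32e-04), where the brightest probe gave -0.14 (adjusted p = 0.542). That comparison lies within a slide. These probes, like the upstream Tet1 probe, are dim beside their arrays' 75th percentile, and the part of array brightness was not tested for them either. The brightest probe and A_51_P199339 lie 989 bases apart.

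**Figure D3:**
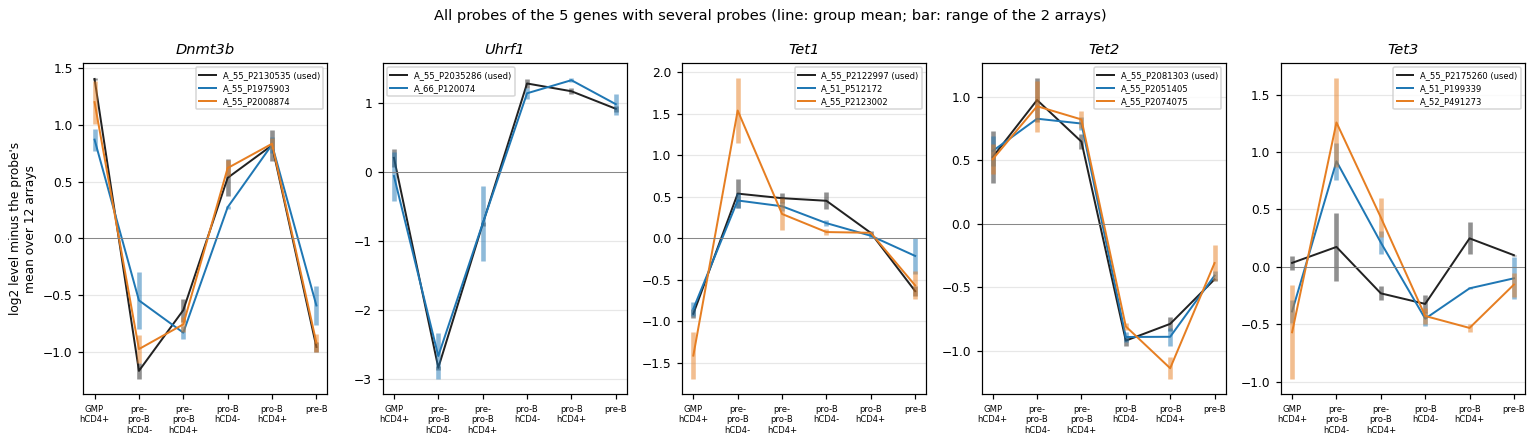
Log2 level of every probe minus its mean over 12 arrays (y axis) by sorted group (x axis) for the 5 genes with several probes, with lines for group means, bars for the range of 2 arrays, and the representative probe in black. Probes of Uhrf1 and Tet2 run together, and those of Dnmt3b less closely, with gate differences among pre-pro-B cells from -0.28 to 0.54. In hCD4- pre-pro-B cells 1 Tet1 probe and 2 Tet3 probes rise above the others of their gene.

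Compared by gate, calls were made among pre-pro-B cells and none among pro-B cells. Among pre-pro-B cells 3 of 7 were higher in hCD4+ cells (Uhrf1, Dnmt1 and Dnmt3b) and none was lower, where 17% of all genes were called, 8.78% higher and 8.26% lower. Of the calls over all genes 51.5% were higher, and 83.5% with arrays scaled to their median, which moved the median of all genes from -0.06 to 0.24. GMP markers also rose here, 5 of 8, with 3 or 4 of the 8 not well above background on the hCD4- arrays, while none of the 7 dendritic cell markers was called (median -0.25, 2 at an unadjusted p under 0.05). Among the other 4 genes the differences and their 95% intervals were 0.11 (-0.13 to 0.35) for Dnmt3a, -0.05 (-0.39 to 0.28) for Tet1, -0.33 (-0.71 to 0.05) for Tet2 and -0.40 (-0.85 to 0.04) for Tet3. These are values of the brightest probes. Over all probes, 1 of 3 for Tet1 and 1 of 3 for Tet3 passed as lower in hCD4+ cells, the Tet3 probes running from -0.83 to -0.40. Among pro-B cells limma called 0 of 7 genes, where 20.5% of all genes were called, 11.6% higher and 8.87% lower. Array median scaling took the share of higher calls there from 56.7 to 31.2%. In limma's test 2 genes had an unadjusted p under 0.05, Tet3 at 0.57 (0.13 to 1.01) and Tet1 at -0.39 (-0.72 to -0.05). The 3 Tet3 probes ran from -0.10 to 0.57 there, and none passed. Uhrf1 there differed by -0.11 (-0.39 to 0.17) and Dnmt1 by 0.17 (-0.25 to 0.60). In the same pro-B comparison all 8 GMP markers rose, 3 of them not well above background on the hCD4- arrays, and 5 of 7 dendritic cell markers rose, with 1 or 2 of the 7 not well above background there. In it 5 of 7 mature neutrophil and 5 of 8 pre-B and later B cell markers fell. The part of these cells was not tested. Of the 23 S phase genes none was called there (median 0.13, 5 at an unadjusted p under 0.05). Other settings called up to 2 of the 7 genes: Dnmt3a (-0.40) and Tet1 (-0.60) with array median scaling, Tet1 and Tet3 with array weights, and Dnmt3b (0.35) in the authors' deposited table.

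Whether the gate difference itself changed between stages was tested as an interaction, pro-B minus pre-pro-B. For Uhrf1 it was -2.19 (SE 0.171, adjusted p 2.16e-04; -1.40 in the authors' deposited table), and for Tet3 0.97 (SE 0.273, adjusted p 0.0364), where 23% of all genes were called, 13% higher and 9.99% lower. With arrays scaled to their median 18% of the calls over all genes were higher, against 56.6%. The Tet3 call ended without any 1 of 9 arrays, those other than both GMP arrays and the replicate 1 array of hCD4- pre-pro-B, with adjusted p 0.0509 to 0.109, and its value was 0.45 with arrays scaled to their median. For Dnmt1 the interaction was -0.79 (SE 0.262) and did not pass (adjusted p = 0.0613). It did pass with arrays scaled to their median (-1.31, adjusted p 0.00560), with a trended robust prior (adjusted p 0.0381) and with a replicate block. The second Uhrf1 probe gave -1.73 (adjusted p = 0.0521), and the other Tet3 probes gave 0.97 (adjusted p 0.0263) and 0.72 (adjusted p = 0.264). Of the S phase list, 22 of 23 genes had a lower gate difference at the pro-B stage (median -1.64).

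**Figure D4:**
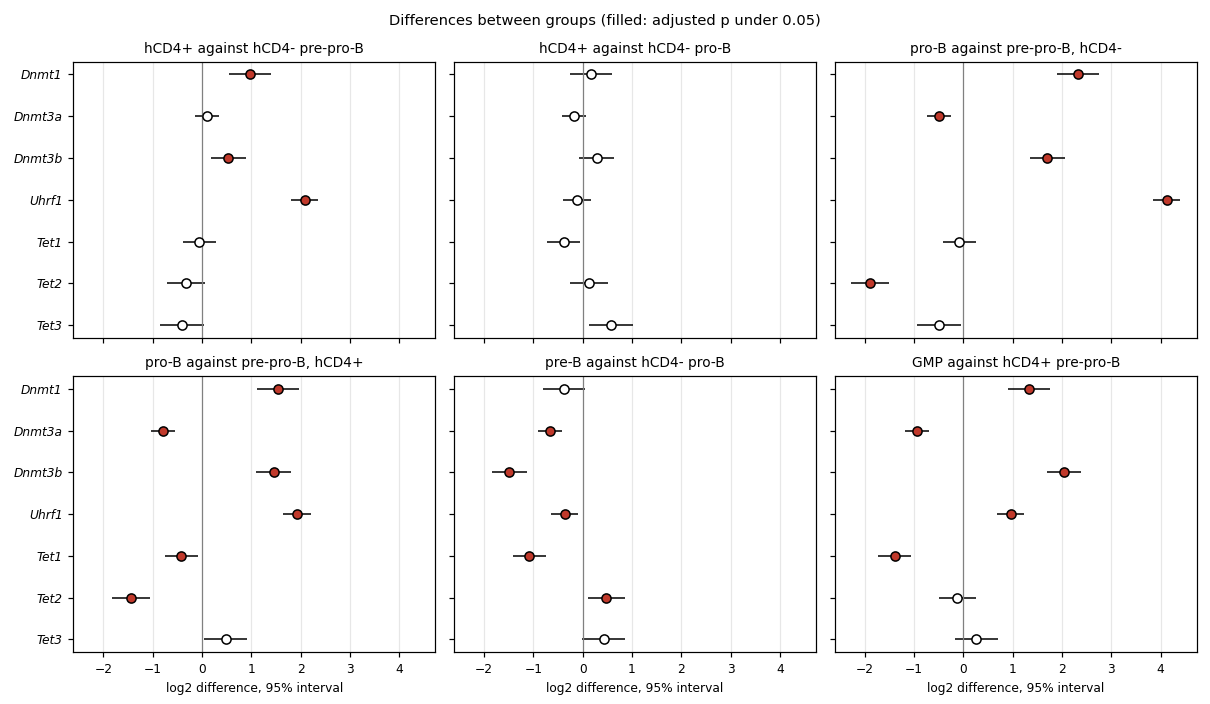
Log2 differences of the 7 genes with their 95% intervals (x axis) in 6 comparisons, filled where the adjusted p was under 0.05. In the 2 panels of pro-B against pre-pro-B, Dnmt1, Dnmt3b and Uhrf1 lie to the right of 0 and Dnmt3a and Tet2 to the left.

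In the step from pre-pro-B to pro-B, 3 of the 7 genes rose and 2 fell among hCD4- cells, where 59.7% of all genes were called (32.7% higher, 26.9% lower), and 3 rose and 3 fell among hCD4+ cells, where 54.2% were called (33.1% higher, 21.1% lower). Array median scaling took the share of higher calls among hCD4+ cells from 61.0 to 39.2%. The 3 that rose were Dnmt1, Dnmt3b and Uhrf1 in each case, and Dnmt3a and Tet2 fell in each. Tet1 fell among hCD4+ cells, at -0.42 (SE 0.145, adjusted p 0.0393), a call lost without any 1 of 8 arrays, all but the 4 of hCD4- cells (adjusted p 0.0511 to 0.166). With most of the array called, the counts do not set the genes apart. Median changes of the 7 were -0.09 and 0.48, against 0.02 and 0.25 over all genes. The comparisons share groups with those by gate. Dendritic cell markers fell in the same steps, 7 of 7 among hCD4- and 6 of 7 among hCD4+ cells.

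From pro-B to pre-B, 1 gene rose and 4 fell against hCD4- pro-B cells (41.1% of all genes called, 19.7% higher and 21.4% lower), and none rose and 4 fell against hCD4+ pro-B cells (42.9% called, 18.8% higher and 24.1% lower). With no filter 3 genes were called against hCD4- pro-B cells, and array median scaling took the share of higher calls over all genes there from 47.9 to 34.7%. Against hCD4- pro-B cells 6 of 7 mature neutrophil, 4 of 7 erythroid and 4 of 6 T cell markers fell as well, and against hCD4+ pro-B cells all 8 GMP and 5 of 7 dendritic cell markers, whose part was not tested. Dnmt3a, Dnmt3b and Tet1 fell against both, and the pre-B arrays are shared by both comparisons. Of the 3 Tet1 probes 1 passed in each. Tet2 was not called against hCD4+ pro-B cells at its brightest probe, though 2 of its 3 probes passed there. Uhrf1 was called against hCD4- pro-B cells at -0.37 (SE 0.121, adjusted p 0.0415) and stood at -0.25 against hCD4+ pro-B cells (adjusted p = 0.129). The call was lost without any 1 of 8 arrays, those of the hCD4+ pre-pro-B, both pro-B and the pre-B groups (adjusted p 0.0551 to 0.192). Dnmt1 fell by 0.55 against hCD4+ pro-B cells (log2 difference -0.55, SE 0.185, adjusted p 0.0422), and this call too ended without any 1 of the same 8 arrays (adjusted p 0.0511 to 0.219).

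GMP differed from hCD4+ pre-pro-B cells in 5 of the 7 genes, 3 higher and 2 lower (54.2% of all genes called, 31.3% higher and 22.8% lower). Against hCD4- pre-pro-B cells, within a slide, 3 were higher and 3 lower (65.5% called, 34.7% higher and 30.8% lower). Array median scaling took the share of higher calls over all genes from 53.0 to 69.1% in the latter. All 7 dendritic cell markers were lower in GMP in both. Dnmt1, Dnmt3b and Uhrf1 were higher in GMP in both, and Dnmt3a and Tet1 were lower in both. Tet3 was not called in either at its brightest probe, though 2 of its 3 probes passed in each. Tet2 was called lower only against hCD4- pre-pro-B cells, at -0.45 (SE 0.165, adjusted p 0.0408). The call ended without any 1 of 10 arrays, all but the replicate 2 array of GMP and the replicate 1 array of hCD4- pre-pro-B cells (adjusted p 0.0550 to 0.254). Without the replicate 1 array of GMP it was -0.25 and without the replicate 2 array of hCD4- pre-pro-B cells -0.28, and with arrays scaled to their median it was 0.0045. Within slide 2, hCD4- pro-B cells against hCD4+ pre-pro-B cells, 3 of 7 were higher and 2 lower (47.8% called, 29.2% higher and 18.6% lower).

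Some factors that work with these enzymes also changed. Of 14 partners of the methyltransferases, 5 rose and 0 fell in hCD4+ against hCD4- pre-pro-B cells (median 0.24, where 17% of all genes were called), led by Cdca7 (2.13, SE 0.187) and Hells (1.37, SE 0.159), the subunits of a chromatin remodeller needed for methylation of packed DNA, and Pcna (1.06), the sliding clamp of replication, which is also in the S phase list. The count was 3 without the replicate 2 array of hCD4- pre-pro-B or either hCD4+ pre-pro-B array, and 1 with only the arrays compared. From hCD4- pre-pro-B to hCD4- pro-B 8 rose and 0 fell, with Cdca7 at 4.70 and Hells at 3.09. Among hCD4+ cells 8 rose and 0 fell as well, with Cdca7 at 2.99. In these steps 59.7% and 54.2% of all genes were called in either direction, and the number of partners called was near that share. All partners called rose, whereas 32.7% and 33.1% of all genes were called higher. In pre-B cells Cdca7 fell against hCD4- pro-B (-0.95) and hCD4+ pro-B (-1.37).

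Of 12 enzymes that supply the methyl donor, 8 rose and 2 fell from hCD4- pre-pro-B to hCD4- pro-B (median 0.94, against 0.02 over all genes) and 7 rose and 2 fell among hCD4+ cells (median 0.99), with Shmt1, which feeds single carbons into the folate cycle, at 3.30 among hCD4- cells, where 1 of the 2 pre-pro-B arrays read it well above background. Beside these counts, 59.7% and 54.2% of all genes were called. Ahcy, which clears the product of methylation, rose by 2.79 among hCD4- cells. In pre-B cells 8 fell and 0 rose against hCD4- pro-B (41.1% of all genes called), and 9 fell and 1 rose against hCD4+ pro-B (42.9% called), with Shmt1 at -1.81 and -2.63 and Shmt2 at -1.48 and -2.25. Ahcy was also higher by gate among pre-pro-B cells (1.11, SE 0.119, adjusted p 6.69e-04).

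Readers of methylated CpG sites split by gene. Of 10, 1 rose and 0 fell in hCD4+ against hCD4- pre-pro-B cells, where 8.78% of all genes were called higher. It was Mbd4, a glycosylase that repairs mismatches at CpG sites (0.96, SE 0.161, adjusted p 0.00634). Mbd4 fell in the same comparison of pro-B cells (-0.90, SE 0.161, adjusted p 0.00719), with an interaction of -1.86 (SE 0.227, adjusted p 0.00146). In that pro-B comparison 4 of the 10 readers fell and 0 rose, where 8.87% of all genes were called lower. The count that fell was 2 with no filter, the mean of probes, the authors' deposited table or only the arrays compared. Zbtb4, which binds methylated DNA, fell from pre-pro-B to pro-B by 1.09 and 1.41 (log2 differences -1.09 and -1.41) and rose in pre-B cells by 1.16 and 1.99. Of 18 tested factors that partner TET enzymes or remove oxidised bases, 9 rose and 4 fell from hCD4- pre-pro-B to hCD4- pro-B, where 59.7% of all genes were called (32.7% higher and 26.9% lower). Ogt, a transferase bound by TET proteins, fell there (-1.90, SE 0.173). In GMP against hCD4+ pre-pro-B cells, where 54.2% of all genes were called, 7 were higher and 4 lower, with Cxxc5, a CpG-binding partner of Tet2, at -3.00 (SE 0.159) and Idh1, which makes the TET cofactor, at 2.66 (SE 0.303). Neil1, a base excision enzyme, rose in pre-B cells by 1.70 and 2.74, and Apex1, a base excision endonuclease, fell there (-1.53 and -2.21).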

How the data were processed

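RNA was prepared, amplified and labelled with Cy3, per the labels' protocols. The deposited scanner files hold intensity values per spot from Feature Extraction 10.7.3.1, already background-subtracted, per the file headers; the authors' deposited table holds log2 values of the same arrays, whose normalization is not given in the sources used here and which served only as an alternative. Control spots and outlier flags were left out, spots of a probe averaged, and the 75th percentile of each array subtracted from log2 intensity. A gene was kept (18543) if both arrays of some group measured a probe of it well above background, and was taken through its brightest such probe, and fitted with limma 3.58.1 (R 4.3.3) over all 12 arrays, 2 per group, without a replicate block; p-values were Benjamini-Hochberg adjusted over genes within a comparison, with a threshold of 0.05. Precision is limited by the number of arrays. The script was tested on simulated data. Named genes were the 7 members, the 4 genes most correlated with each, and up to 3 called genes of each list with the largest change. A few of these are not reported here. The members and lists were chosen with earlier results of these data known. Alternatives were quantile normalization, cyclic loess, array median scaling, normexp with an offset of 50, no filter, a floor at background, the mean of probes, array weights, a trended robust prior, only the arrays compared, the deposited table, a replicate block and each array left out.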

Additional observations from a re-analysis of the deposited data

Results flagged for a closer look

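The gate difference of Uhrf1 differed between the stages: hCD4+ minus hCD4- cells gave 2.08 among pre-pro-B and -0.11 among pro-B cells, an interaction of -2.19 on the log2 scale (limma, adjusted p 2.16e-04). The Tet3 interaction of 0.97 (adjusted p 0.0364) rests on gate differences of -0.40 and 0.57 at its brightest probe, neither past the threshold. Of the 3 Tet3 probes 1 passed between the gates among pre-pro-B cells and none among pro-B cells.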

How the results depend on the processing

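Of 41 calls on single genes in the 10 comparisons, 32 held in every alternative and 9 ended in at least 1; of 1680 refits of single genes 1511 kept their direction and side of the threshold and 33 turned in sign. Of the calls, 1 turned: Tet2 in GMP against hCD4- pre-pro-B cells was 0.0045 with arrays scaled to their median (adjusted p 0.983), a scaling that moved the median of all genes in that comparison from -0.04 to 0.41. The other 32 were of values that had not passed the test, and none passed after turning; the cause was not tested. With array median scaling Tet1 turned to 0.25 between the pre-pro-B gates and 0.11 in the hCD4- step to pro-B, Dnmt1 to -0.046 and Tet2 to -0.087 between the pro-B gates, Tet2 to 0.029 in GMP against hCD4+ pre-pro-B and -0.063 in the interaction, and Tet3 to 0.31 in GMP against hCD4- pre-pro-B. That last value was 0.073 with normexp and quantile normalization, 0.10 with quantile normalization and 0.17 with cyclic loess, where Tet1 between the pre-pro-B gates was 0.043. In the authors' deposited table and with the mean of probes, in that order, Tet2 between the pro-B gates was -0.050 and -0.065, Tet3 was -0.30 and -0.29 in the hCD4+ step, 0.10 and 0.11 in pre-B against hCD4+ pro-B and -0.15 and -0.44 in GMP against hCD4+ pre-pro-B, and the interaction was 0.10 and 0.19 for Dnmt3b and 0.30 and 0.27 for Tet1. The mean of probes also turned Uhrf1 between the pro-B gates to 0.039. Without single arrays Tet1 ran from -0.23 to 0.12 between the pre-pro-B gates, -0.26 to 0.091 in the hCD4- step and -0.13 to 0.072 for hCD4- pro-B cells against hCD4+ pre-pro-B cells, Tet2 from -0.32 to 0.080 in GMP against hCD4+ pre-pro-B, and Tet3 from -0.43 to 0.15 in GMP against hCD4- pre-pro-B. The interaction called 2 genes, and 5 with array median scaling or 1 with quantile normalization, cyclic loess, the authors' deposited table, no filter, the mean of probes or only the arrays compared; the cause was not tested, except that the last has fewer samples. Between hCD4+ and hCD4- pro-B cells, 0 genes became 2 with array median scaling, 1 with the authors' deposited table (Dnmt3b) and 2 with array weights (Tet1 and Tet3). In pre-B against hCD4- pro-B cells 5 became 3 with no filter, and between the pre-pro-B gates 3 became 1 with only the arrays compared. Leaving out each array in turn gave 1 to 3 called genes between the pre-pro-B gates, 0 to 2 between the pro-B gates, 5 to 6 and 5 to 7 in the hCD4- and hCD4+ steps to pro-B, 3 to 6 and 3 to 4 in pre-B against hCD4- and hCD4+ pro-B, 5 to 5 and 5 to 7 in GMP against hCD4+ and hCD4- pre-pro-B, 5 to 5 for hCD4- pro-B cells against hCD4+ pre-pro-B cells, 1 to 2 in the interaction and 6 to 7 in the F test. Same-numbered arrays deviated together in 10 of 15 group pairs (correlations of deviations -0.0069 to 0.255, over 0.1 in those 10). The labels do not tie the numbers to animals, so the main fit did not take them as pairs, and whether they mark pairs was not tested. With a replicate block the interaction called 3 genes in place of 2, Dnmt1 being added, and no call was lost. Slide as a block could not be fitted with the groups, since each group lies on 1 slide.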
